A study of Mus musculus with 12 samples.

Results

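The hypoxia response genes described here are 10 genes of the hypoxia-inducible factor (HIF) pathway, chosen by symbol: Hif1a, Epas1, Egln3, Vegfa, Adm, Hk2, Ldha, Pdk1, Bnip3 and Ndrg1. All 10 were found among the 25124 genes listed in both deposited tables. In the study, mRNA was sequenced in bulk from whole retinas of C57BL/6J wildtype mice. One eye received a hydrostatic elevation of intraocular pressure (IOP) to 30 mmHg for 1 h, and the untreated other eye served as control. Retinas of 3- and 18-month-old animals were collected 2 days later, giving the control and IOP groups of each age (3mo control and 3mo IOP, then 18mo control and 18mo IOP). In a second experiment, 4 elevations spaced by 2 weeks began at 3 months of age (4xIOP), again with the contralateral eye as control (4xIOP control). Each of the 6 groups has 2 libraries. The libraries of a group are separate samples, but the sources used here do not say whether same-numbered libraries came from the same animal, so p-values measure only the spread between these samples. The labels name no low-oxygen treatment, so the genes were read as members of a pathway and not as a response to hypoxia.

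HIF is a dimer of an oxygen-regulated alpha subunit and a stable beta subunit. With oxygen, prolyl hydroxylases mark the alpha subunit for destruction by the von Hippel-Lindau ubiquitin ligase, so the amount of HIF protein is set mostly after transcription and need not follow the mRNA of Hif1a or Epas1. Without oxygen the alpha subunit accumulates, binds hypoxia response elements and raises genes for glycolysis, mitochondrial adaptation and blood vessel growth. The retina has a high demand for oxygen, and its photoreceptors turn much glucose into lactate even when oxygen is present.

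The promoters of the 3 HIF target genes that differed with age in untreated eyes and have a window in the RefSeq promoter table are printed first, so that the element that defines the pathway can be seen in genes that moved in opposite directions. Each line gives the 250 bases before the start of transcription in GRCm38.p6, 5′ to 3′ on the strand of the gene, and capitals mark the core of the hypoxia response element, ACGTG or GCGTG, on either strand. A run of CACGTG holds the core on both strands, overlapping itself. Ldha lies on the + strand with its window at chr7:46845554-46845803, Bnip3 on the - strand at chr7:138909507-138909756, and Hk2 on the - strand at chr6:82774455-82774704.
Ldha: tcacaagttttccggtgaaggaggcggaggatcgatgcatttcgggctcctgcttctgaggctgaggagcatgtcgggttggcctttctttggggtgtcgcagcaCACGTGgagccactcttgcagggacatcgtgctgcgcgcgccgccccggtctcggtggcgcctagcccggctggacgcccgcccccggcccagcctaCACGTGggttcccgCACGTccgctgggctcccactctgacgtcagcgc
Bnip3: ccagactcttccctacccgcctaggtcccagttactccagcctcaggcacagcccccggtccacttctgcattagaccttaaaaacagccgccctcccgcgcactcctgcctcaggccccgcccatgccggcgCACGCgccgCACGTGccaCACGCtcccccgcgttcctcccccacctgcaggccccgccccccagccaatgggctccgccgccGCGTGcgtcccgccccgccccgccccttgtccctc
Hk2: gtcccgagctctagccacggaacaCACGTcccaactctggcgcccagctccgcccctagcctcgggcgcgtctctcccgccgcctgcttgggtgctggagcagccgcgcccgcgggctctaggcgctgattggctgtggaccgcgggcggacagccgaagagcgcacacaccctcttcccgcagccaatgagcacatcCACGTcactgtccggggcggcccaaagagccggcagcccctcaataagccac
Counting each strand, the 250 bases held 5 cores in Ldha, 5 in Bnip3 and 2 in Hk2. Windows of 300 bases, reaching 50 bases past the start, were listed for 8 of the 10 members (Epas1 and Ndrg1 had none), and each of these 8 genes held a core in at least 1 of its windows. Of the 11 windows of members, 9 (81.8%) held a core, against 43.8% of all 32851 promoter windows in the table. ACGTG was in 19.6% and GCGTG in 32.4% of all windows. The printed window of Hk2, which was higher at 18 months, and those of Ldha and Bnip3, which were lower, all contained the motif, and a match is a description and not a site shown to be bound.

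Values are FPKM, reads scaled to the length of the transcript and to the reads of the library, so levels of different genes are on a scale per length. The order that follows is approximate, since the balance of short and long genes differed between libraries, as given below with the age changes, and reads shared with pseudogene copies may have been lost, which makes the level of Ldha uncertain. The libraries held between 39766239 and 59455057 counted reads. In the single-IOP experiment the mean level over the 8 libraries was highest for Ldha (697 FPKM), followed by Hif1a (134), Bnip3 (86.2), Hk2 (63.5), Ndrg1 (55.6), Vegfa (32.1), Epas1 (22.6), Pdk1 (6.66), Adm (1.03) and Egln3 (0.733). Ldha was above Hif1a, Ndrg1 above Vegfa and Epas1 above Pdk1 in each of the 8, whereas the order of the other neighbours changed in at least 1 library. Hif1a stood above its paralog Epas1 in all 12 libraries. In mm10 the transcripts of the HIF subunits and the hydroxylase lie at chr12:73901324-73947530 (Hif1a, +), chr17:86753864-86833410 (Epas1, +) and chr12:54178981-54203874 (Egln3, -). Those of the targets lie at chr17:46016994-46032377 (Vegfa, -), chr7:110627657-110629820 (Adm, +), chr6:82725027-82774454 (Hk2, -), chr7:46845804-46855627 (Ldha, +), chr2:71873224-71903858 (Pdk1, +), chr7:138890836-138909506 (Bnip3, -) and chr15:66929318-66969641 (Ndrg1, -).

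**Figure D1:**
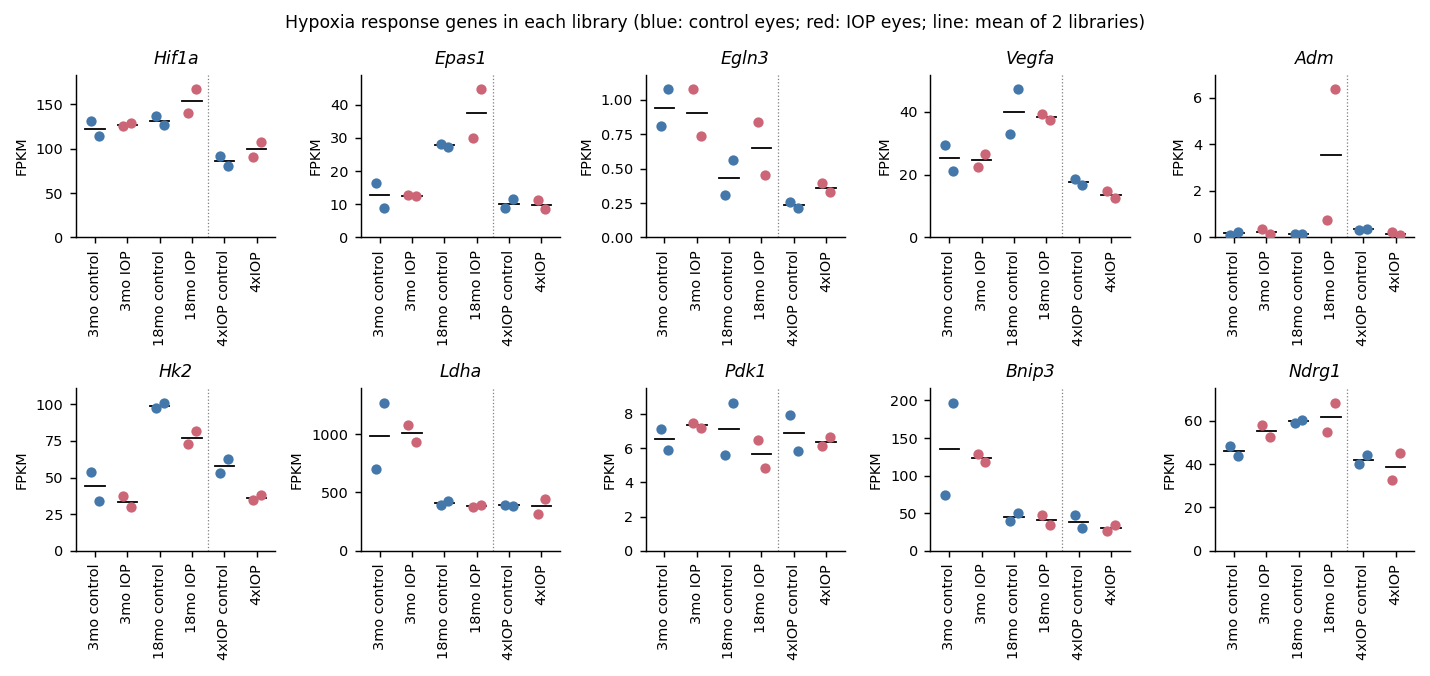
Level of each member (y axis, FPKM from 0) in each of 12 libraries, by group (x axis), with control eyes in blue, IOP eyes in red and a line at the mean of 2 libraries. The dotted line separates 2 tables that were normalized apart. Ldha and Bnip3 are highest in the 3mo libraries, Hk2 and Epas1 are highest in the 18mo libraries, and Adm is above 1 FPKM in a single library.

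Age was compared in untreated eyes, 18mo control against 3mo control. A gene was called where limma on log2(FPKM + 0.5) gave a p of 0.05 or less after Benjamini-Hochberg adjustment, together with a log2 change of 1 or more, among 13731 genes averaging 0.5 FPKM or more. Of the 10 members, 2 rose (Epas1 and Hk2) and 2 fell (Ldha and Bnip3), where 11.6% of all tested genes were called higher and 11.6% lower. Median-of-ratios size factors lowered the changes (the median of all genes by 0.148 on the log2 scale), so that 35% in place of 50.1% of the called genes were higher, and Epas1, at 0.995, just missed the required size. The 2 groups did not overlap for 7 of the 10 members, close to the 78.5% of all tested genes. Members as a group therefore had no common direction with age. Their median log2 fold change was 0.10, beside 0.16 over all tested genes.

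Epas1 encodes HIF-2 alpha, the alpha subunit known from endothelium. Its level was 16.4 and 8.90 FPKM at 3 months and 28.2 and 27.2 FPKM at 18 months. Both 18-month libraries were above both 3-month libraries, with means of 12.7 ± 5.31 and 27.7 ± 0.678 FPKM (SD, n = 2 each). The log2 fold change was 1.16 (SE 0.292, limma adjusted p = 0.0156). The markers of endothelium moved the same way: all 8 were called higher, their summed level was between 14.8 and 16.6 FPKM in the 3mo control libraries and between 80.3 and 85.7 at 18 months, and none was at 0. Their part in the change of Epas1 was not tested, and in bulk tissue more cells of a type and more RNA per cell cannot be told apart. Hif1a, which encodes HIF-1 alpha, had 131 and 114 FPKM at 3 months against 136 and 126 at 18 months. These ranges overlapped, and the 95% interval of its log2 fold change of 0.10 ran from -0.35 to 0.56.

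Hk2 encodes hexokinase 2, which phosphorylates glucose at the entry of glycolysis and in the retina is known from photoreceptors. The 3mo control libraries had 53.9 and 34.2 FPKM, the 18mo control libraries 97.2 and 101. No library overlapped, and the log2 fold change was 1.20 (SE 0.242, limma adjusted p = 0.00865), a ratio of means of 2.25. The summed level of 8 rod markers, all detected in every library, went the other way, from between 21339.8 and 24155 FPKM at 3 months to between 15841 and 17791 at 18 months, although 1 of the 8 was called lower, with a median log2 fold change of -0.28 over the list. Markers that moved with Hk2 were those of Muller glia, of which 4 of 8 were called higher (sums of 760 and 1140 FPKM at 3 months, 2104 and 1703 at 18 months), and of bipolar and amacrine cells, of which 4 of 8 were called higher (180 and 142, then 242 and 330 FPKM). So did those of endothelium, given beside Epas1, of microglia and leukocytes, with 5 of 8 called higher (19.1 and 39.2, then 66.8 and 77.0 FPKM), and of pericytes and smooth muscle, with 3 of 6 (11.5 and 10.4, then 37.4 and 41.3 FPKM). Their part in the change of Hk2 was not tested. Hk1, the widely expressed hexokinase, had means of 89.8 and 147 FPKM and a difference of 0.74 on the log2 scale (limma adjusted p = 0.0592), so it was not called.

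Ldha encodes the lactate dehydrogenase subunit that favours lactate formation. The 3mo control libraries had 699 and 1269.8 FPKM, the 18mo control libraries 396 and 427. All old libraries were below all young ones, although the young pair differed more from each other than the lower of them did from the old pair. The log2 fold change was -1.196 (SE 0.328, limma adjusted p = 0.0209). Ldhb, the paralog that favours the reverse reaction, also fell, with a difference of -1.02 on the log2 scale (limma adjusted p = 0.033). That is just past the required size, and its value with a library left out or the length trend removed is not given here.

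Bnip3 encodes a mitochondrial outer membrane protein that promotes mitophagy. The 3mo control libraries had 73.9 and 197 FPKM, the 18mo control libraries 40.1 and 50.9. The groups did not overlap, the log2 fold change was -1.41 (SE 0.411, limma adjusted p = 0.0255), and the young libraries were again far apart. Its paralog Bnip3l had a log2 fold change of -0.98 with a limma adjusted p of 0.0113, just short of the required size. Markers of other cells fell in the same libraries. Of 8 retinal ganglion cell markers 5 were called lower, with sums of 326 and 631 FPKM in the 3mo control and of 35.3 and 81.7 in the 18mo control libraries, the higher young library being the one with the higher Ldha and Bnip3. All 7 tested markers of retinal pigment epithelium were called lower too, with sums given below beside Car12. Their part in the changes of Ldha and Bnip3 was not tested.

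The remaining members were not called. Vegfa, the endothelial growth factor, was at 29.5 and 21.3 FPKM at 3 months and 33.0 and 47.1 at 18 months, without overlap, and its log2 fold change of 0.64 had a limma adjusted p of 0.0525. Ndrg1, a stress-induced gene, had 48.3 and 43.5 against 59.0 and 60.4 FPKM, also without overlap, with a log2 fold change of 0.38 (95% interval -0.04 to 0.80). Egln3, the HIF prolyl hydroxylase that is itself a HIF target, was low throughout, at 0.812 and 1.075 FPKM against 0.308 and 0.56, with a log2 fold change of -0.64 (95% interval -1.27 to -0.00). None of these differences passed the test. Pdk1, which holds pyruvate back from the mitochondria, was at 7.11 and 5.90 FPKM against 5.58 and 8.66, and its 95% interval ran from -0.45 to 0.65. Adm, the precursor of the vasodilator adrenomedullin, rested on between 6 and 16 reads in each of these 4 libraries, and no change could be detected at that depth.

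In control eyes the called members that fell had shorter transcripts than those that rose. The rows used for Ldha and Bnip3 are 1613 and 1748 bases long and those for Epas1 and Hk2 5334 and 5491 bases. Over the 10 members the age change in control eyes had a Spearman correlation of 0.81 with transcript length, and over all 13731 tested genes of 0.41, as a description, since all points share the same libraries. Dividing the median level of protein-coding genes shorter than 2000 bases by that of genes of 4000 bases or more gave 1.88 and 3.70 for 3mo control, and 1.38 and 1.35 for 18mo control. The young library with 3.70 is also the one with the higher Ldha and Bnip3. With the length trend removed from every library, the log2 fold changes were 0.79 for Epas1, 0.81 for Hk2, -0.92 for Ldha and -1.24 for Bnip3. All 4 kept an adjusted p of at most 0.05, but Bnip3 alone was still past 1 on the log2 scale. Without 3mo control replicate 2 none of the 4 was called, with values of 0.74, 0.87, -0.77 and -0.70, and without either 18mo control library none was called because the adjusted p rose above 0.05.

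**Figure D2:**
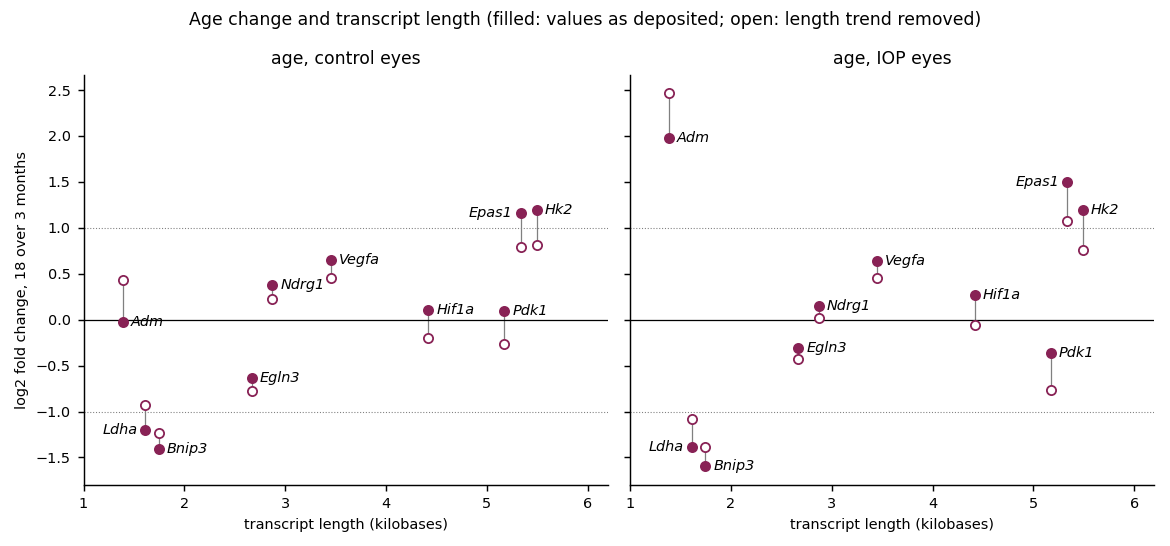
Log2 fold change of each member from 3 to 18 months (y axis) against the length of its transcript in kilobases (x axis), in control eyes (left) and IOP eyes (right). Filled points are the values as deposited and open points the values after the length trend of each library was removed, with dotted lines at 1 and -1. In control eyes Bnip3 alone stays beyond a dotted line once the trend is removed.

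The same comparison in the eyes that had received IOP used 4 other libraries, 18mo IOP against 3mo IOP, within the same fit. There 3 members, among them Adm, whose call rested on 1 library, rose and 2 fell, where 10.2% of all tested genes were called higher and 11.6% lower, and 8 of the 10 members did not overlap, beside 77.7% of all tested genes. Epas1 was at 12.7 and 12.5 FPKM in the 3mo IOP libraries and at 30.1 and 44.6 in the 18mo IOP libraries, a difference of 1.502 on the log2 scale (limma adjusted p = 0.00884). Hk2 was at 37.4 and 29.8 against 73.1 and 81.5 FPKM, a difference of 1.20 on the log2 scale (limma adjusted p = 0.00959). Both were again higher at 18 months without overlap. Ldha was at 1081 and 936 against 375 and 395 FPKM, a difference of -1.39 on the log2 scale (limma adjusted p = 0.0149). Bnip3 was at 129 and 117 against 47.3 and 34.5 FPKM, a difference of -1.59 on the log2 scale (limma adjusted p = 0.019). Both were lower at 18 months, and here the 2 young libraries lay close together. In these eyes the ratio of short to long genes was 3.40 and 2.83 at 3 months and 1.44 and 1.58 at 18 months. With the length trend removed the values were 1.08 for Epas1, 0.76 for Hk2, -1.08 for Ldha and -1.39 for Bnip3, so that Hk2 was no longer called. The Spearman correlation of the age change with transcript length was 0.30 over the 10 members and 0.46 over all tested genes in these eyes, as a description. All 8 retinal ganglion cell markers were called lower, with sums of 455 and 524 FPKM in the 3mo IOP and of 89.2 and 31.7 in the 18mo IOP libraries. All 7 tested pigment epithelium markers were called lower as well (499 and 201, then 4.43 and 1.53 FPKM). All 8 endothelial markers were called higher (20.3 and 17.3, then 119.9 and 108 FPKM), as were 6 of 8 of Muller glia (1298 and 917, then 3170 and 3042 FPKM). Also called higher were 4 of 8 markers of bipolar and amacrine cells and 4 of 8 of microglia and leukocytes. Of 6 markers of pericytes and smooth muscle 3 were called higher and 3 lower, and of 8 rod markers 1 was called lower. The part of these markers in the changes of the members was not tested. Leaving out either 3mo IOP library left no member called, and leaving out 18mo IOP replicate 2 left 2, Epas1 and Hk2. Ldha lost its call with any of the 4 libraries left out, its adjusted p then lying between 0.0562 and 0.0958.

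The additional rise was that of Adm, the member with the shortest transcript (1388 bases), with a log2 fold change of 1.98 (SE 0.654, limma adjusted p = 0.0413). The 3mo IOP libraries had 0.371 and 0.138 FPKM, the 18mo IOP libraries 0.761 and 6.35. The groups did not overlap, but the value rested on 18mo IOP replicate 2, with 524 reads against 58 in the other 18mo IOP library. Adm was tested through this group only, since the means of the other 3 groups were 0.173, 0.255 and 0.159 FPKM, under the 0.5 FPKM required of the mean over all libraries, so the call gives no support for a change. Without replicate 2 Adm was not tested, and the call was also lost with no filter, with size factors, with voom and with only the 2 groups compared (adjusted p between 0.0509 and 0.0919). Vegfa was at 22.6 and 26.4 against 39.4 and 37.4 FPKM, a difference of 0.64 on the log2 scale (limma adjusted p = 0.0562). Hif1a, at 125 and 129 against 139.9 and 167 FPKM, had a log2 fold change of 0.27 (95% interval -0.19 to 0.72). Pdk1 (-0.36), Egln3 (-0.30) and Ndrg1 (0.15) were not called on this log2 scale.

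**Figure D3:**
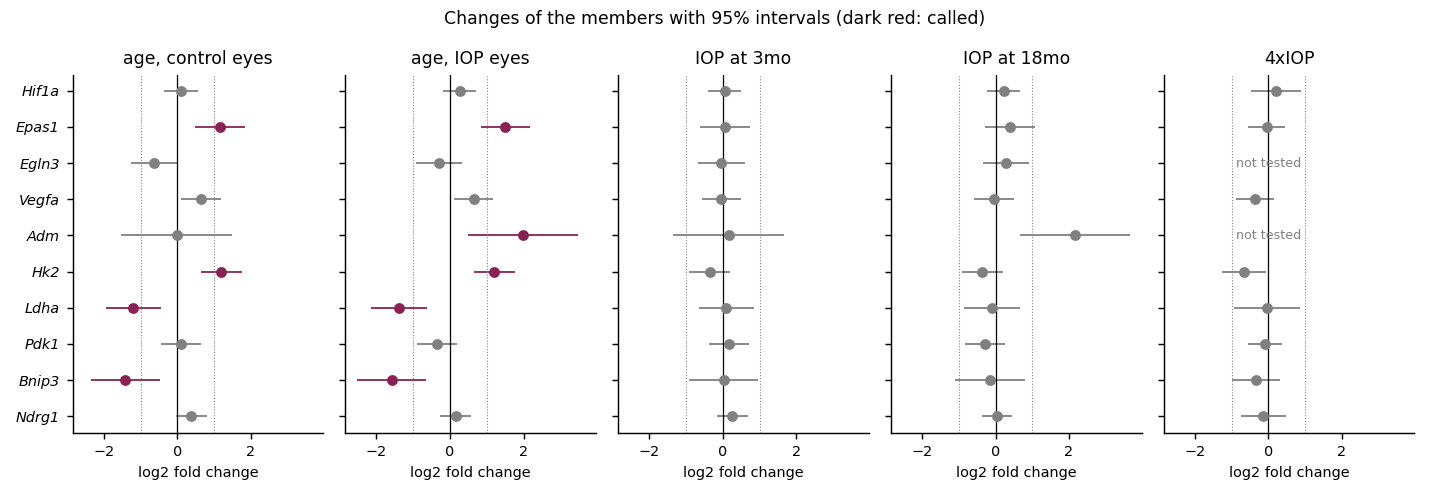
Log2 fold change (x axis) with its 95% interval from the limma fit for each member (y axis) in 5 comparisons, with called members in dark red and dotted lines at 1 and -1. Calls appear in the 2 age comparisons, and the widest interval is that of Adm, which together with Egln3 was too low to test in the 4xIOP comparison.

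IOP was compared with control within each age, which asks whether the pathway's mRNA differed 2 days after the elevation. At 3 months no member was called by limma, none had an unadjusted p under 0.05 and voom on the recovered reads called none, beside 0.575% of all tested genes called by limma, and 2 of the 10 members did not overlap, beside 32.5% of tested genes. The log2 fold changes of 9 members lay between -0.04 and 0.26, and that of Hk2 was -0.36. Hif1a had 131 and 114 FPKM in control and 125 and 129 in IOP libraries, with a 95% interval of -0.40 to 0.51. Hk2 had 53.9 and 34.2 against 37.4 and 29.8 FPKM, with overlap and a 95% interval of -0.92 to 0.20. The 2 members without overlap were Pdk1, at 7.11 and 5.90 against 7.48 and 7.20 FPKM, and Ndrg1, at 48.3 and 43.5 against 57.9 and 52.3 FPKM. For 9 members a log2 change of 1 in either direction lay outside the 95% interval, which for Adm ran from -1.35 to 1.66. This comparison shares its control libraries with that of age in untreated eyes.

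At 18 months no member was called by limma or by voom either, beside 0.124% of all tested genes by limma, and Adm alone had an unadjusted p under 0.05. The groups did not overlap for 5 of the 10, beside 46.4% of tested genes. Adm, at 0.164 and 0.154 FPKM in control and 0.761 and 6.35 in IOP libraries, had the largest value among members, 2.16 on the log2 scale (95% interval 0.65 to 3.66, limma adjusted p = 0.249). Both IOP libraries were above both controls, which held 10 reads each. With 18mo IOP replicate 1 left out, a call of Adm (limma adjusted p = 0.00491) rested on the other library alone, through which Adm also reached the level needed for testing. Hk2 had 97.2 and 101 FPKM in control and 73.1 and 81.5 in IOP libraries, without overlap, and a log2 fold change of -0.36 (95% interval -0.92 to 0.20). Epas1, with 28.2 and 27.2 against 30.1 and 44.6 FPKM, had 0.40, and Hif1a, with 136 and 126 against 139.9 and 167 FPKM, had 0.22. These 2 and Ldha (-0.09) also did not overlap and were not called. Vegfa differed by -0.04 and Ndrg1 by 0.04 on the log2 scale.

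Whether the response to IOP differed between the ages was tested as an interaction, judged by the adjusted p alone. No member was called by limma or by voom, none had an unadjusted p under 0.05, and 0.0% of all tested genes were called, with 218 genes at an unadjusted limma p under 0.05. The largest interaction among members was that of Adm, 2.00 on the log2 scale (95% interval -0.13 to 4.13, limma adjusted p = 1.0), and the other 9 lay between -0.45 and 0.34.

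The repeated elevation was compared within its own table, in which the rows of Vegfa and Pdk1 rest on other transcripts than in the single-IOP table. Adm, between 0.102 and 0.374 FPKM, and Egln3, between 0.212 and 0.394, were under 0.5 FPKM on average and were not tested. None of the other 8 members was called by limma or by voom, Hk2 alone having an unadjusted p under 0.05, where 5.45% of the 13718 tested genes were called higher and 0.693% lower. The groups did not overlap for 2 of the 8, Hk2 and Vegfa, beside 40.3% of tested genes. Hk2 was at 53.4 and 62.4 FPKM in 4xIOP control and 34.6 and 37.8 in 4xIOP libraries. Both treated libraries were below both controls, and the log2 fold change was -0.67 (SE 0.277, limma adjusted p = 0.24). Over the alternatives that kept all libraries, that p ran from 0.0262 to 0.682, with 0.0383 for size factors at -0.79, and the size stayed under 1. Vegfa was at 18.5 and 16.6 against 14.8 and 12.4 FPKM, lower without overlap, with a difference of -0.36 on the log2 scale (limma adjusted p = 0.601). Hif1a was at 91.2 and 80.3 against 90.6 and 108 FPKM, and its 95% interval ran from -0.48 to 0.89. Ldha (382 to 394 against 319 to 447 FPKM), Bnip3 (29.6 to 47.0 against 25.7 to 33.8), Ndrg1 (40.1 to 44.0 against 32.5 to 44.9), Epas1 (8.98 to 11.5 against 8.52 to 11.3) and Pdk1 (5.81 to 7.95 against 6.095 to 6.65) all overlapped. The summed rod markers were between 9648 and 10100.1 FPKM in control and between 4768 and 7162 in treated libraries, and their part in the values of Hk2 was not tested.

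Levels in the 2 tables, which were normalized apart, can be set side by side only as values. The 4xIOP control retinas came from young animals. Their Ldha (382 to 394 FPKM) and Bnip3 (29.6 to 47.0 FPKM) lay under the lowest 3mo control library and near the 18mo control libraries, whereas their Epas1 (8.98 to 11.5 FPKM) lay within the 3mo control range and their Hk2 (53.4 to 62.4 FPKM) nearer to the 3mo than to the 18mo control libraries. Their ratio of short to long genes was 1.47 and 1.43, also near that of the 18mo libraries.

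The other genes of the pathway were read from lists of 71 genes, of which 66 were tested in the single-IOP experiment. With age in control eyes 8 rose and 6 fell, and in IOP eyes 8 rose and 6 fell, beside the shares of all genes given above. The median log2 fold change of the 66 was 0.24 in control eyes and 0.10 in IOP eyes, beside 0.16 and 0.09 over all tested genes. The 6 that fell in control eyes had transcripts with a median of 1270 bases and the 8 that rose a median of 3026 bases. With the length trend removed 7 of the 14 were still called in control eyes and 7 of 14 in IOP eyes, and with a library left out between 6 and 14 and between 4 and 9.

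Among 14 HIF regulators none rose and 2 fell in control eyes. Eloc and Elob encode the elongins C and B of the von Hippel-Lindau ligase. Eloc was at 74.6 and 134 FPKM in the 3mo and at 29.1 and 28.8 in the 18mo control libraries (log2 fold change -1.77, limma adjusted p = 0.00519). Elob had a difference of -1.62 on the log2 scale (limma adjusted p = 0.0109). With the length trend removed neither was called in control eyes, at -0.96 and -0.57, and without 3mo control replicate 2 Elob was at -1.02. In IOP eyes both fell again (-1.47 and -1.54), and 2 regulators rose, Hif3a, another alpha subunit, by 1.22 and Crebbp, a HIF coactivator, by 1.05. Hif3a was at 0.328 and 0.223 FPKM in the 3mo IOP and at 1.51 and 1.12 in the 18mo IOP libraries. It passed the filter through the 18-month libraries only, so its call alone gives no support. With no filter it was still called (limma adjusted p = 0.0125), but with a pseudocount of 1 it was not, at 0.86. With the length trend removed none of these 4 was called in IOP eyes (Eloc -0.64, Elob -0.47, Hif3a 0.71 and Crebbp 0.53), nor was any of them without either 3mo IOP library.

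Of 16 genes for glucose uptake and glycolysis, 2 rose and 1 fell in control eyes. Slc2a1, the glucose transporter GLUT1, was at 45.2 and 40.4 FPKM at 3 months and at 89.2 and 84.8 at 18 months (log2 fold change 1.02, limma adjusted p = 0.00828). Pfkp, a phosphofructokinase, rose by 1.17 and Tpi1, triosephosphate isomerase, fell by 1.03 on the log2 scale. In IOP eyes Tpi1 alone of the list was called, with -1.15. Of 8 mitochondrial targets, Fam162a (-1.69) and Higd1a (-1.01) fell and Ndufa4l2 (1.19) and Lonp1 (1.17) rose in control eyes, and in IOP eyes Fam162a (-1.64) and Higd1a (-1.14) fell. None of Slc2a1, Pfkp, Tpi1, Fam162a and Higd1a was called in control eyes with the length trend removed, nor without 3mo control replicate 2, where Fam162a was at -0.899, Higd1a at -0.49 and Tpi1 at -0.60. Lonp1, at 0.88, was also lost without 3mo control replicate 2, and Lonp1 and Ndufa4l2 were lost without 18mo control replicate 2 (limma adjusted p = 0.0503 and 0.0534). In IOP eyes the calls of Tpi1, Fam162a and Higd1a were lost with the length trend removed (-0.83, -0.62 and -0.88) and with any of the 4 libraries left out.

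Of 11 tested vascular targets and receptors, 3 rose with age in control eyes and 5 in IOP eyes, beside 11.6% and 10.2% of all tested genes, and none fell, beside 11.6% in each. Flt1 encodes a receptor of VEGF-A. Young control eyes had 2.46 and 1.64 FPKM, old control eyes 14.5 and 15.4, a difference of 2.61 on the log2 scale (limma adjusted p = 0.00265). Kdr, the main signalling receptor of VEGF-A, was at 7.32 and 5.54 against 30.2 and 28.4 FPKM, a difference of 2.11 on the log2 scale (limma adjusted p = 0.00265). Both receptors were higher in every old library, and both belong to the endothelial markers given beside Epas1. Edn1, endothelin 1, rose by 1.20. In IOP eyes the 3 largest rises were those of Flt1 (2.94), Kdr (2.43) and Pgf, placental growth factor (1.93), while the ligand Vegfa was called in neither comparison. Pgf was at 1.73 and 0.955 FPKM in the 3mo IOP and at 3.84 and 10.4 in the 18mo IOP libraries, and without 18mo IOP replicate 2, which also held the high Adm, its change was 1.27 (limma adjusted p = 0.0362). Its call was lost without either 3mo IOP library (limma adjusted p = 0.0512 and 0.0744), whereas Flt1 and Kdr were called with any library left out in both comparisons. Among the 17 other targets tested, Bhlhe40, a transcriptional repressor, rose (1.38) and Car12, a carbonic anhydrase, fell (-1.87) in control eyes, as they did in IOP eyes (1.23 and -1.76). Car12 was at 1.83 and 1.27 FPKM in the 3mo and at 0.087 and 0.023 in the 18mo control libraries. It passed the filter through the 3-month libraries only, so its calls alone give no support. With no filter it was still called (limma adjusted p = 0.015 in control and 0.0164 in IOP eyes). In IOP eyes Bhlhe40 was not called without 3mo IOP replicate 2 (1.13), nor Car12 without 3mo IOP replicate 1 (-1.32). The markers of retinal pigment epithelium moved with Car12: 7 of 7 tested were called lower, and their summed level was between 185 and 197 FPKM in the 3mo control libraries and between 2.85 and 10.5 in the 18mo control libraries, with 1 of the 8 markers at 0 in 1 of these. Over 0.5 FPKM were 7 of the 8 in each 3mo control library and 5 and 2 in the 18mo control libraries, so the count of calls depends on the filter. The part of these markers in the change of Car12 was not tested.

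Of the 12 paralogs of members tested, 1 rose and 1 fell (Ldhb, just past the required size) in control eyes. The rise was that of Ndrg2, a paralog of Ndrg1, at 21.5 and 24.3 FPKM at 3 months and 59.95 and 51.0 at 18 months, a difference of 1.26 on the log2 scale (limma adjusted p = 0.00543). In IOP eyes Ndrg2 was at 30.8 and 29.0 against 87.6 and 113 FPKM (1.72, limma adjusted p = 0.00239) and rose together with Hif3a, whose filter limit is given above, and no paralog fell. Ndrg1 itself was called in neither.

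After a single elevation, limma called 1 of the 66 genes at 3 months, in the vascular list, and none at 18 months. Of all tested genes 0.575% and 0.124% were called. The median log2 fold change of the 66 was 0.109 at 3 months and 0.067 at 18 months, beside 0.135 and 0.089 over all tested genes. The 11 vascular targets and receptors had medians of 0.293 and 0.451 and the 16 genes for glucose uptake and glycolysis had 0.049 and -0.151.

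After repeated elevation, 5 of 61 tested genes rose and 1 fell, where 5.45% of all tested genes were called higher and 0.693% lower, with a median log2 fold change of 0.07 beside 0.10 over all tested genes. Hmox1, the heme-degrading enzyme, was at 0.849 and 0.949 FPKM in 4xIOP control and 8.22 and 9.91 in 4xIOP libraries (log2 fold change 2.77, limma adjusted p = 1.28e-06). Pgf was at 0.127 and 0.312 against 3.10 and 5.67 FPKM (2.72, limma adjusted p = 2.16e-05). Cxcr4, a chemokine receptor, rose by 1.76 and Kdr by 1.17. Of the 7 endothelial markers tested here, a list that holds Kdr, 1 was called higher. Nt5e, the ectonucleotidase that makes adenosine, fell from 32.9 and 37.5 to 11.3 and 15.5 FPKM (-1.37, limma adjusted p = 0.00375). The calls of Kdr and Nt5e were lost without either control library, and that of Kdr also without 4xIOP replicate 2. Those of Hmox1, Pgf and Cxcr4 held with any library left out. Pgf and Cxcr4, however, were under 0.5 FPKM in control and passed the filter through the treated libraries only, so these calls alone give no support. With no filter on low values Pgf and Cxcr4 were still called (limma adjusted p = 0.0119 and 0.0201), and Kdr was not (limma adjusted p = 0.0639). The 10 vascular genes tested had a median of 0.96, whereas the 16 glycolytic genes, of which none was called, had -0.03. Markers of microglia and leukocytes moved in the same libraries: 8 of 8 were called higher, with a summed level of 9.72 and 10.01 FPKM in control and of 133 in both treated libraries. Lens markers did so too, with 5 of 5 tested called higher and sums between 0.578 and 4.66 against 47.9 and 110.1 FPKM, 2 of the 8 being at 0 in each control library. Over 0.5 FPKM were 2 and 0 of the 8 lens markers in the control and 5 and 7 in the treated libraries. Most were thus tested through the treated libraries, and the count of lens calls gives no support. Markers of reactive glia were higher as well, with 2 of 3 tested markers called higher and sums of 8.52 and 7.97 against 56.5 and 48.2 FPKM. Markers of pigment epithelium fell, with 3 of 3 tested called lower and sums of 26.8 and 36.3 against 2.77 and 5.99 FPKM, 1 of the 8 being at 0 in 1 treated library. Over 0.5 FPKM were 4 of these 8 in each control library and 1 and 2 in the treated libraries, so this count too depends on the filter. The summed rod markers were lower in both treated libraries, as given beside Hk2, in the libraries where Nt5e fell. The part of these markers in the changes of Hmox1, Cxcr4, Pgf and Nt5e was not tested.

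**Figure D4:**
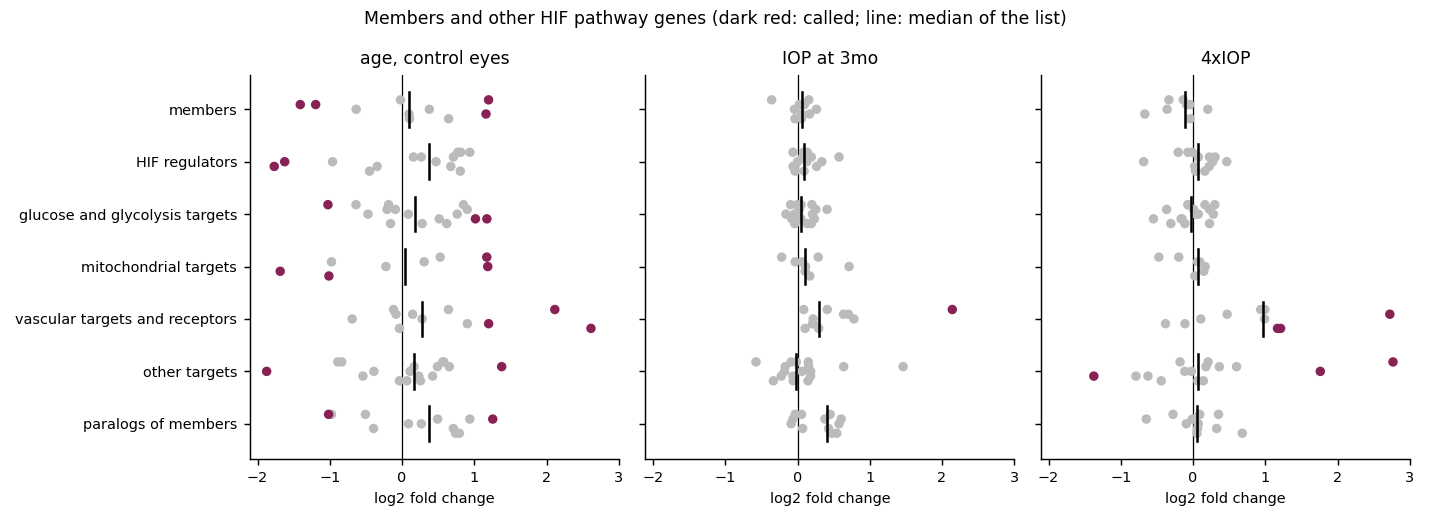
Log2 fold change (x axis) of the members and of each list of other HIF pathway genes (y axis) with age in control eyes, with IOP at 3 months and with 4xIOP. Each point is a tested gene, called genes are dark red, and the line marks the median of the list. The members scatter to both sides with age, lie between -0.36 and 0.26 with IOP at 3 months and reach -0.67 (Hk2) in 4xIOP, where 1 of the 8 tested is above 0, while the vascular list has a median of 0.96 in 4xIOP.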

How the data were processed

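RNA of 12 retinas was made into poly(A) libraries and sequenced in pairs. Per the labels and the paper, the authors aligned reads to mm10 with STAR 2.7.8a and counted exon reads with HOMER, and used DESeq2 for their own tests. The deposited values are FPKM, scaled to the length of 1 transcript per gene and to the reads of the library, in a table per experiment, with replicates not pooled. The totals were recovered from the FPKM steps (all values checked came to whole reads within 0.1 reads) and lay between 39766239 and 59455057, with 44.2% to 71.5% in exons. A value of 3 reads on 2000 bases corresponds to 0.0252 to 0.0377 FPKM. Both reads of a pair can be counted, so counts are not independent molecules, and limits cover counting error only.

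Here log2(FPKM + 0.5) was fitted with limma 3.58.1 (R 4.3.3; lmFit, eBayes with a trend), the 8 single-IOP libraries as 4 groups and the 4 repeated-IOP libraries alone, with Benjamini-Hochberg adjustment over all genes averaging 0.5 FPKM or more. Fold changes are on that scale and understate those of low genes. Symbols were matched exactly (Ero1a as Ero1l). The members and the lists were chosen with earlier results of these data known. All members are named, and of the lists only called genes, at most the 3 largest rises and falls of a list in a comparison, and paralogs of members; 1 called gene of the vascular list is counted but not reported here. Alternatives were other pseudocounts, filters, size factors, removal of the length trend (splines with 5 degrees of freedom), a replicate block, voom on the recovered reads, only the 2 groups compared, the adjusted p alone, and each library left out. The steps were tested on simulated data. Reads that also fit a pseudogene copy may have been lost, which makes the level of Ldha uncertain. Promoter windows were taken from RefSeq. Protein sequences were not used here.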

Additional observations from a re-analysis of the deposited data

How the results depend on the processing

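With 2 libraries a group, the age calls of members depend on single libraries and on the length trend, and low read numbers limit Adm and Egln3. None of the 48 member values that changed sign under a setting was past the threshold there, and none belonged to a member called in that comparison. Members called with age in control eyes numbered 4, then 2 with no filter on low values or with only the 2 groups compared, 1 with the length trend removed, 3 with size factors (median of ratios; Epas1 was lost), and between 0 and 4 with a library left out. Ldha and Bnip3 were the 2 lost with no filter and with only the 2 groups compared. In IOP eyes they numbered 5, 3 with no filter (Adm and Ldha were lost), 4 with size factors, voom or only the 2 groups compared (Adm was lost) and with the length trend removed (Hk2 was lost), and between 0 and 4 with a library left out. With IOP at 18 months between 0 and 1 was called when a library was left out (the 1 being Adm, without 18mo IOP replicate 1). A left-out library leaves a lone sample, which is assumed to vary like the other groups. No setting tried called a member with IOP at 3 months, in the interaction or in 4xIOP.

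Over all genes, the adjusted p alone gave 6297 calls with age in control eyes and 5846 in IOP eyes, against 3185 and 3000. Leaving out a library gave between 1171 and 4720, and between 677 and 2783. With IOP at 3 months the 79 calls became 9 with no filter, 10 with size factors, 120 with the length trend removed, 3 with voom, and between 0 and 257 with a library left out. With IOP at 18 months the 17 calls became 1 with no filter, 9 at a mean of 2 FPKM or more, 41 with the length trend removed, between 0 and 138 with a library left out, and 0 with a pseudocount of 0.1, size factors, voom, a replicate block or only the 2 groups compared. The interaction gave 2 with no filter and between 0 and 2 with a library left out. The 843 calls in 4xIOP became 475 at a mean of 2 FPKM or more. The cause was not tested.

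Same-numbered control and IOP libraries deviated in opposite directions (r = -0.28 at 3 months, -0.53 at 18 months, -0.29 in 4xIOP). The replicate block, which pairs them, gave 3133, 2942, 53, 0, 0 and 864 calls in the order age in control eyes, age in IOP eyes, IOP at 3 months, IOP at 18 months, interaction and 4xIOP, and changed no count of called members. A crossed replicate block, chosen after seeing the data, gave 66 with IOP at 3 months, 0 at 18 months and 894 in 4xIOP.

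Changes of sign among uncalled members reached -0.68 for Bnip3 with a library left out. With the length trend removed the log2 fold changes that changed sign were 0.44 for Adm, -0.20 for Hif1a and -0.27 for Pdk1 with age in control eyes, -0.061 for Hif1a with age in IOP eyes, -0.056 for Bnip3 with IOP at 3 months and 0.028 for Epas1 in 4xIOP. With size factors and with voom alike they were -0.070 for Hif1a with age in control eyes, and with IOP at 3 months -0.17 for Bnip3, -0.13 for Epas1, -0.14 for Hif1a and -0.10 for Ldha. Pdk1 had -0.065 with size factors and -0.068 with voom with age in control eyes, and -0.015 and -0.016 with IOP at 3 months, and Ndrg1 had -0.080 and -0.081 with IOP at 18 months. With a library left out, the ranges that crossed 0 with age in control eyes were -0.17 to 0.13 for Adm, -0.00014 to 0.21 for Hif1a and -0.20 to 0.39 for Pdk1, and in IOP eyes -0.00086 to 0.31 for Ndrg1. With IOP at 3 months they were -0.068 to 0.38 for Adm, -0.68 to 0.73 for Bnip3, -0.22 to 0.13 for Egln3, -0.37 to 0.48 for Epas1, -0.049 to 0.16 for Hif1a, -0.34 to 0.52 for Ldha and -0.27 to 0.20 for Vegfa. With IOP at 18 months they were -0.38 to 0.066 for Bnip3, -0.12 to 0.19 for Ndrg1, -0.58 to 0.0078 for Pdk1 and -0.29 to 0.21 for Vegfa. In 4xIOP they were -0.24 to 0.15 for Epas1, -0.28 to 0.20 for Ldha, -0.37 to 0.10 for Ndrg1 and -0.30 to 0.12 for Pdk1.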
